A study of Mus musculus with 4 samples.

Results

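The enzymes that make, modify and break down ceramide were followed as transcripts in splenic T cells of mice with and without ceramide synthase 6 (Cers6) at 2 ages. They are 42 genes chosen by symbol from the known steps of the pathway, out of 35275 genes in the deposited table, and 42 of the 42 symbols were found there. By step, 11 genes serve de novo synthesis, 6 are ceramide synthases, 11 serve sphingomyelin, ceramide transfer and ceramide phosphorylation, 9 serve glycosphingolipids and 5 are ceramidases. Before RNA was taken, splenic T cells of C57BL/6 mice were activated by antibodies through CD3 and CD28 (3 days, with IL-2). The 4 groups, each with 1 library, crossed genotype (wild type or Cers6 knockout) with age. Values below run from the wild type at 2 and then 8 months to the knockout at 2 and then 8 months. The labels do not say which part of Cers6 was deleted, in which cells, or how many animals gave each library. The series text mentions duplicate samples, but no spread within a group can be measured from 1 library each, and cell culture, animal and library differences cannot be told apart from genotype and age.

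Ceramide is the hub of sphingolipid metabolism. In the endoplasmic reticulum, serine palmitoyltransferase joins serine to a fatty acyl-CoA, the product is reduced to a sphingoid base, a ceramide synthase attaches a second acyl chain, and a desaturase turns the resulting dihydroceramide into ceramide. The ceramide synthases differ in the chain they prefer, Cers2 favouring very long chains and Cers5 and Cers6 the palmitoyl chain. Ceramide is then converted to sphingomyelin or glycosphingolipids, phosphorylated, or cleaved to sphingosine by ceramidases, and it is known in T cells for effects on membrane organisation, survival and stress responses.

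The libraries held between 18145555 and 24239344 counts. Levels are given as CPM, counts scaled to library size, and, where genes are compared with each other, as scaled FPKM, the same CPM per kilobase of deposited gene length. The T cell label was checked against 10 defining genes, all with counts in each library and with summed levels of 2632, 2299, 2632 and 2013 CPM. The 10 B cell markers summed to 2517, 3635, 2190.1 and 1489 CPM, so that B cell RNA lay beside that of T cells in each library. The 5 NK cell markers summed to 31, 5.24, 20.7 and 14 CPM and the 6 erythroid markers to 15.5, 35.9, 22.1 and 55.6 CPM. The older knockout thus had the lowest T and B cell sums and the highest erythroid sum. The 8-month wild-type library stood apart. A single receptor segment, Trbv14, took 98.6% of its Trbv counts, whereas no segment took over 8.98% in the others, and 10 neutrophil markers summed to 112 CPM there against 2.09, 0.174 and 6.08 CPM. Its 10 monocyte and macrophage markers summed to 119 CPM against 25.7, 14.2 and 28.5 CPM, with C1qa and C1qb at 0 in both knockout libraries. The 2-month wild-type library was the one with Xist, the RNA of the inactive X chromosome, at 441 CPM against at most 0.171 CPM elsewhere. Contrasts against that library therefore differ in Xist as well as in genotype or age. In bulk RNA, fewer cells of a type and less RNA per cell cannot be told apart. The part of cell makeup in the results below was not tested.

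Of the 42 enzymes, 34 reached 2 CPM in at least 1 library. The plot of levels per length shows that their order was set mainly by the gene and little by the library. Psap, the precursor of the saposins that help lysosomal enzymes reach glycolipids, was the most abundant, with 364, 428, 340.0 and 329.8 scaled FPKM. It ranked between place 149 and place 200 among all genes of a library. Ugcg, which starts glycosphingolipid synthesis by adding glucose to ceramide, had 69.9, 58.9, 83.3 and 65.7 scaled FPKM. Sptssa, a small subunit that activates serine palmitoyltransferase, had 54.9, 63.6, 53.5 and 43.5 scaled FPKM and lay above Ugcg in wild type at 8 months only. Near the lower end lay the ceramidase genes Acer2, with 0.775, 0.425, 0.964 and 1.72 scaled FPKM, and Asah2, with 0.949, 1.2, 1.19 and 1.28. Summed per step, ceramide synthases held 72.3, 71.2, 63.9 and 61.7 scaled FPKM and ceramidases 14.4, 14.3, 17.1 and 19.8. The sums were 166, 175, 155 and 149 scaled FPKM for de novo synthesis, 123, 112, 129 and 122 for the sphingomyelin step, and 527, 585, 508 and 480.2 for the glycosphingolipid step. With TMM scaling, the ceramidase sum was thus highest and the ceramide synthase sum lowest in the older knockout. That library had the largest TMM factor, 1.15 against 0.947, 0.968 and 0.949. With library size alone, its ceramide synthase sum would not be the lowest, so that order depends on the scaling.

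**Figure D1:**
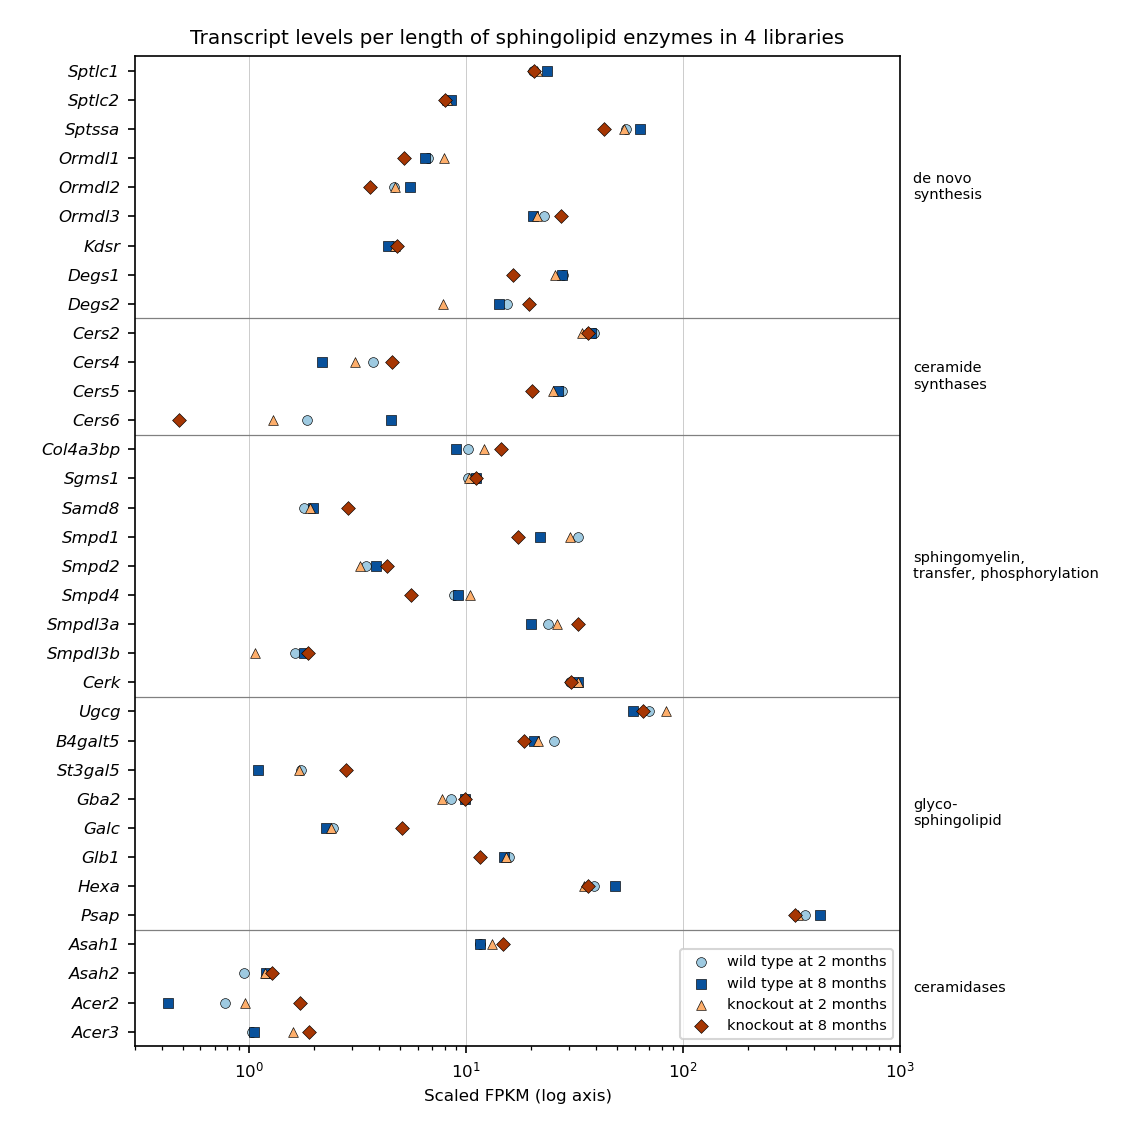
Level of each of the 34 sphingolipid enzymes that reached 2 CPM, in scaled FPKM on a log axis, with 1 point per library and the genes ordered by step. Points of most genes lie close together, while Cers6 spreads from 0.48 to 4.55 and Acer2 from 0.425 to 1.72.

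The other 8 enzymes had few or no counts. Sptssb, a tissue-restricted relative of Sptssa, had 0 counts in all 4 libraries, which allows up to 3 counts or 0.131, 0.142, 0.174 and 0.128 CPM. Sptlc3, an alternative catalytic subunit, had 1 count in all, in wild type at 8 months. Cers1 had 1, 0, 2 and 6 counts and Cers3, known from skin, 1, 1, 0 and 0. Acer1, an alkaline ceramidase of skin, had 1, 1, 7 and 2 counts. Sgms2, the sphingomyelin synthase of the plasma membrane, had 6, 31, 2 and 6 counts, the highest in the library with the highest myeloid markers. Smpd3, a neutral sphingomyelinase, had 2, 17, 9 and 12 counts, and B4galt6, a lactosylceramide synthase, 9, 21, 7 and 27.

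The ceramide synthases include the deleted gene. Cers6 (ENSMUSG00000027035, GRCm38 chromosome 2, 68861441 to 69114282, plus strand) had 301, 678, 158 and 79 counts, or 13.1, 32.0, 9.17 and 3.38 CPM. Both knockout libraries lay below both wild-type libraries, and the 95% counting intervals did not overlap between any pair of libraries (11.7 to 14.7, 29.6 to 34.5, 7.80 to 10.7 and 2.68 to 4.21 CPM). Knockout was 1.42-fold lower at 2 months and 9.23-fold lower at 8 months, a difference between the ages of -2.70 (-3.18 to -2.28) on the log2 scale. The 8-month fold is measured against the 8-month wild-type library, which stood apart and held the highest Cers6 level. Against the 2-month wild type, the older knockout was lower by -1.93 (-2.33 to -1.59) on the log2 scale. That contrast, used again below, changes genotype and age together and cannot tell them apart. Counts cover the whole gene, so any transcript lacking the deleted part is included. Across both ages, the genotype effect of an additive model was -1.85 (SE 0.51) on the log2 scale and did not pass (edgeR quasi-likelihood, adjusted p = 0.392 by Benjamini-Hochberg). It passed when every gene with a count or only genes with a mean of 5 CPM or more were tested (edgeR quasi-likelihood adjusted p = 0.000585 and 0.00873). In fits without 1 wild-type library, the outcome turned on which of them was left out. Without the 2-month one, the only wild type left is the 8-month library that stood apart. Such fits have genotype alone in the model and 1 library in a group, so they do not decide the effect. Over all alternatives run, the adjusted p of Cers6 lay between 0.000585 and 1.

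As a share of all ceramide synthase counts, Cers6 made up 6.19% (exact 95% interval 5.53 to 6.90), 15.2% (14.2 to 16.3), 4.97% (4.24 to 5.79) and 1.84% (1.46 to 2.29). This share does not depend on scaling between libraries, and it was again lowest in the older knockout and highest in the older wild type. Per length, Cers2 and Cers5 dominated. Cers2 held 53.7%, 53.3%, 53.7% and 58.9% of the summed scaled FPKM and Cers5 38.5%, 37.3%, 39.4% and 32.7%, while Cers6 held 2.58%, 6.39%, 2.04% and 0.779%. Cers2 measured 86.0, 84.0, 76.1 and 80.6 CPM, and its 4 single-library folds lay between -0.18 and 0.08 on the log2 scale. With library size alone, its fold was 0.19 for genotype at 8 months and 0.36 with age in knockout. Cers5, the other synthase with a preference for the palmitoyl chain, measured 77.2, 73.7, 69.9 and 56.0 CPM. It was lower in knockout by -0.14 (-0.25 to -0.04) at 2 months and -0.40 (-0.50 to -0.29) at 8 months on the log2 scale. The 8-month value was -0.15 with library size alone.

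**Figure D2:**
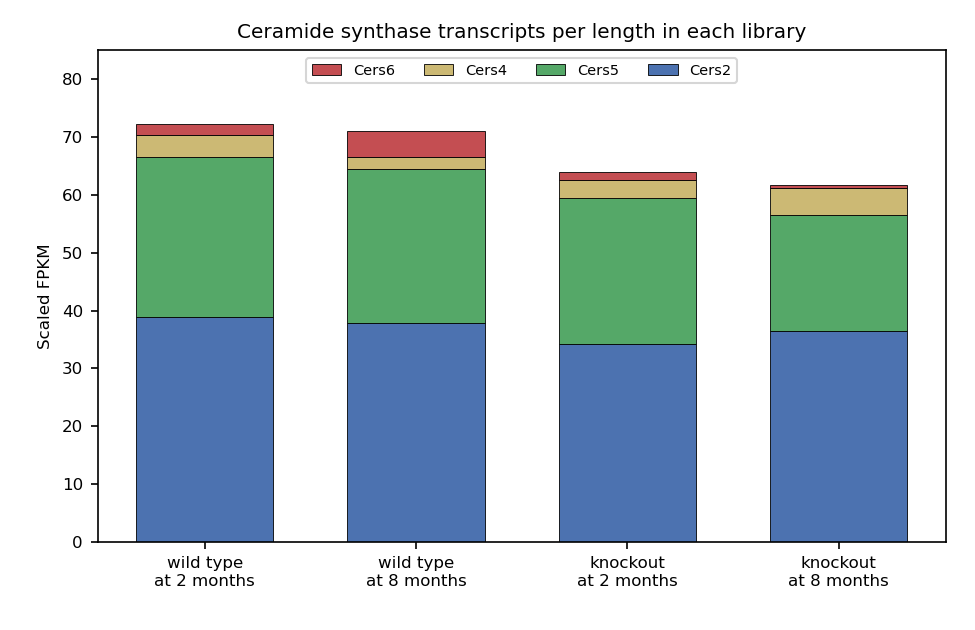
Summed scaled FPKM of Cers2, Cers5, Cers4 and Cers6 in each of the 4 libraries, as stacked bars, with Cers1 and Cers3 left out because they had at most 6 counts. Cers2 and Cers5 fill most of each bar, and the Cers6 layer is thickest in wild type at 8 months (4.55) and thinnest in knockout at 8 months (0.48).

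Cers4, which prefers long acyl chains, ran opposite to Cers6 at 8 months. Cers4 (ENSMUSG00000008206, chromosome 8, 4493026 to 4531680, plus strand) measured 35.5, 20.6, 29.3 and 43.5 CPM. The older wild type was lowest and the older knockout highest. On the log2 scale its knockout over wild type fold was -0.28 (-0.44 to -0.12) in the younger pair and 1.08 (0.92 to 1.24) in the older one. Against the 2-month wild type, which differs in age as well, the older knockout was higher by 0.29 (0.16 to 0.43). With the trend on gene length removed the 8-month value was 0.61. The 2-fold call is thus lost with the younger wild-type library as the denominator and with a correction for length. Cers4 took 16.7%, 9.78%, 15.9% and 23.7% of the ceramide synthase counts.

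In de novo synthesis, Degs2 was the single enzyme of 9 past 2 CPM to reach 2-fold in a contrast of single libraries, with age in knockout. Sptlc1 and Sptlc2, the main subunits of serine palmitoyltransferase, measured 53.2, 61.9, 55.4 and 53.9 CPM and 54.1, 57.4, 54.8 and 54.1 CPM. Kdsr, the reductase of the next reaction, measured 25.6, 24.3, 26.1 and 26.6 CPM. Sptssa measured 74.9, 86.6, 73.0 and 59.2 CPM and was lower in knockout at 8 months by -0.55 (-0.65 to -0.45) on the log2 scale. That fold depended on processing, at -0.24 with the trend on gene length removed and -0.30 with library size alone. Ormdl1, Ormdl2 and Ormdl3 encode inhibitors of serine palmitoyltransferase. At 8 months Ormdl1 and Ormdl2 were lower in knockout (-0.32 and -0.60 on the log2 scale) and Ormdl3 was higher (0.42, 0.30 to 0.54), and all 3 lay within 2-fold. Of the exon bases of Ormdl2, 66.7% also lie in exons of Dnajc14 on the opposite strand, and Dnajc14 (67, 67.5, 76.3 and 62 CPM) was several times more abundant than Ormdl2 (9.67, 11.4, 9.75 and 7.45 CPM). The labels do not say whether counting used strand, so the value of Ormdl2 is uncertain.

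Degs1, the general dihydroceramide desaturase, measured 57.3, 56.9, 53.0 and 34.0 CPM. It was level in 3 libraries and 1.67-fold lower than wild type in the older knockout. Degs2 (ENSMUSG00000021263, chromosome 12, 108686792 to 108702306, minus strand), which can also hydroxylate dihydroceramide to give phytoceramide, measured 49.2, 45.6, 24.9 and 62.4 CPM. The younger knockout was lowest and the older knockout highest. Knockout over wild type was -0.98 (-1.15 to -0.82) at 2 months, just inside 2-fold, and 0.45 (0.33 to 0.57) at 8 months on the log2 scale. Within the knockout, Degs2 was 2.50-fold higher at 8 than at 2 months. Per length, Degs2 made up 35.6%, 34.0%, 23.2% and 54.1% of the 2 desaturases together. In GENCODE M21, 278 of the 2583 exon bases of Degs2 (10.8%) also lie in exons of Evl on the opposite strand, a gene that measured 305, 274, 291 and 284 CPM. The part of Evl reads in the Degs2 counts was not tested.

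For sphingomyelin, transfer and phosphorylation, none of the 9 enzymes past 2 CPM reached 2-fold in any contrast of single libraries. Col4a3bp, the transfer protein that carries ceramide to the Golgi, measured 55.3, 48.5, 65.6 and 77.9 CPM and was higher in knockout by 0.24 (0.13 to 0.36) at 2 months and 0.68 (0.57 to 0.80) at 8 months on the log2 scale. Sgms1, the sphingomyelin synthase of the Golgi, was level at 41.2, 45.3, 42.2 and 45.3 CPM. Samd8, which makes the related ceramide phosphoethanolamine, measured 12.3, 13.5, 13.1 and 19.5 CPM. Smpd1, the acid sphingomyelinase of lysosomes, differed more with age than with genotype, at 79.4, 52.7, 72.9 and 42.3 CPM. Both 8-month libraries lay below both 2-month libraries, with an additive age effect of -0.67 (SE 0.24) on the log2 scale that did not pass (edgeR quasi-likelihood adjusted p = 0.409). Smpd4, a sphingomyelinase of the nuclear envelope and endoplasmic reticulum, measured 44.2, 46.1, 52.5 and 28.2 CPM and was 1.63-fold lower than wild type in the older knockout. Smpdl3a, a phosphodiesterase related to Smpd1, measured 46.9, 39.3, 51.6 and 64.4 CPM, and Smpdl3b, a membrane relative, 3.27, 3.63, 2.15 and 3.77 CPM. Smpd2, a neutral sphingomyelinase, measured 14.4, 16.1, 13.6 and 18.1 CPM, with 20.3% of its exon bases shared with Mical1 on the opposite strand. Cerk, which phosphorylates ceramide, was among the steadiest at 137, 148, 149 and 138 CPM.

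Among the glycosphingolipid enzymes, Galc and St3gal5 stood out in the older knockout. Galc (ENSMUSG00000021003, chromosome 12, 98202304 to 98259459, minus strand), the lysosomal enzyme that cleaves galactosylceramide, measured 9.32, 8.68, 9.12 and 19.4 CPM. Levels in 3 libraries had overlapping intervals, and the older knockout lay apart at 17.6 to 21.3 CPM. Galc was 2.22-fold higher than wild type at 8 months and 2.12-fold higher than in knockout at 2 months, and 2.07-fold higher than the 2-month wild type. St3gal5 (ENSMUSG00000056091, chromosome 6, 72097592 to 72154571, plus strand), which makes the ganglioside GM3, measured 4.27, 2.69, 4.18 and 6.85 CPM. It was lowest in the older wild type and highest in the older knockout, 2.49-fold apart, and its log2 fold against the 2-month wild type was 0.67 (0.31 to 1.06). The additive genotype effects of Galc and St3gal5 were 0.58 (SE 0.38) and 0.66 (SE 0.53) on the log2 scale and did not pass (edgeR quasi-likelihood adjusted p = 0.689 and 0.748).

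The remaining glycosphingolipid enzymes past 2 CPM lay within 2-fold in each contrast of single libraries. Ugcg measured 280.4, 236, 334 and 264 CPM and was higher in knockout by 0.25 (0.20 to 0.31) at 2 months and 0.16 (0.10 to 0.21) at 8 months on the log2 scale. B4galt5, the main lactosylceramide synthase here, measured 108, 86.7, 91.1 and 78.2 CPM. Gba2, which cleaves glucosylceramide outside lysosomes, measured 30.5, 35.3, 27.6 and 35.1 CPM. The lysosomal hydrolase genes Glb1 (37.8, 35.9, 36.9 and 27.9 CPM) and Hexa (72.7, 90.8, 65.7 and 68.0 CPM) and the saposin gene Psap (966, 1137, 903 and 876 CPM) were each lower in knockout at 8 months, by -0.36, -0.42 and -0.38 on the log2 scale. For Psap the value was -0.13 with library size alone. Hexa and Psap were highest in the 8-month wild-type library, which also had the highest B cell and myeloid marker sums.

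Each of the 4 ceramidases past 2 CPM had a higher level in knockout than in wild type at both ages, most of all Acer2 at 8 months. The share of all genes with that direction at both ages was not counted, so this count has no background. Other steps also leaned to 1 side at 2 months. There 0 of 4 ceramide synthases and 1 of 8 glycosphingolipid enzymes past 2 CPM were higher in knockout. Each contrast sets 1 library against 1, and some of the intervals below include no change. Acer2 (ENSMUSG00000038007, chromosome 4, 86874396 to 86934822, plus strand), the alkaline ceramidase of the Golgi, had 75, 38, 70 and 169 counts, or 3.27, 1.79, 4.06 and 7.23 CPM. The older wild type was lowest and the older knockout highest, 3.88-fold apart. Its log2 fold for genotype was 0.31 (-0.18 to 0.81) at 2 months, where the counting interval includes no change, and 1.96 (1.5 to 2.56) at 8 months. Against the 2-month wild type the older knockout was 2.18-fold higher. The additive genotype effect was 1.16 (SE 0.57) on the log2 scale and did not pass (edgeR quasi-likelihood adjusted p = 0.610). Acer3, another alkaline ceramidase, measured 4.40, 4.48, 6.79 and 8.05 CPM, with both knockout libraries above both wild-type libraries. On the log2 scale the knockout exceeded wild type by 0.62 (0.23 to 1.03) in the younger pair and by 0.83 (0.48 to 1.22) in the older one, with an additive effect of 0.74 (SE 0.45, edgeR quasi-likelihood adjusted p = 0.664). Asah1, the acid ceramidase of lysosomes and by far the most abundant of the step per length, measured 32.1, 32.0, 36.6 and 41.3 CPM. Asah2, the neutral ceramidase, measured 4.44, 5.62, 5.57 and 5.99 CPM, and its intervals for genotype included no change at both ages.

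**Figure D3:**
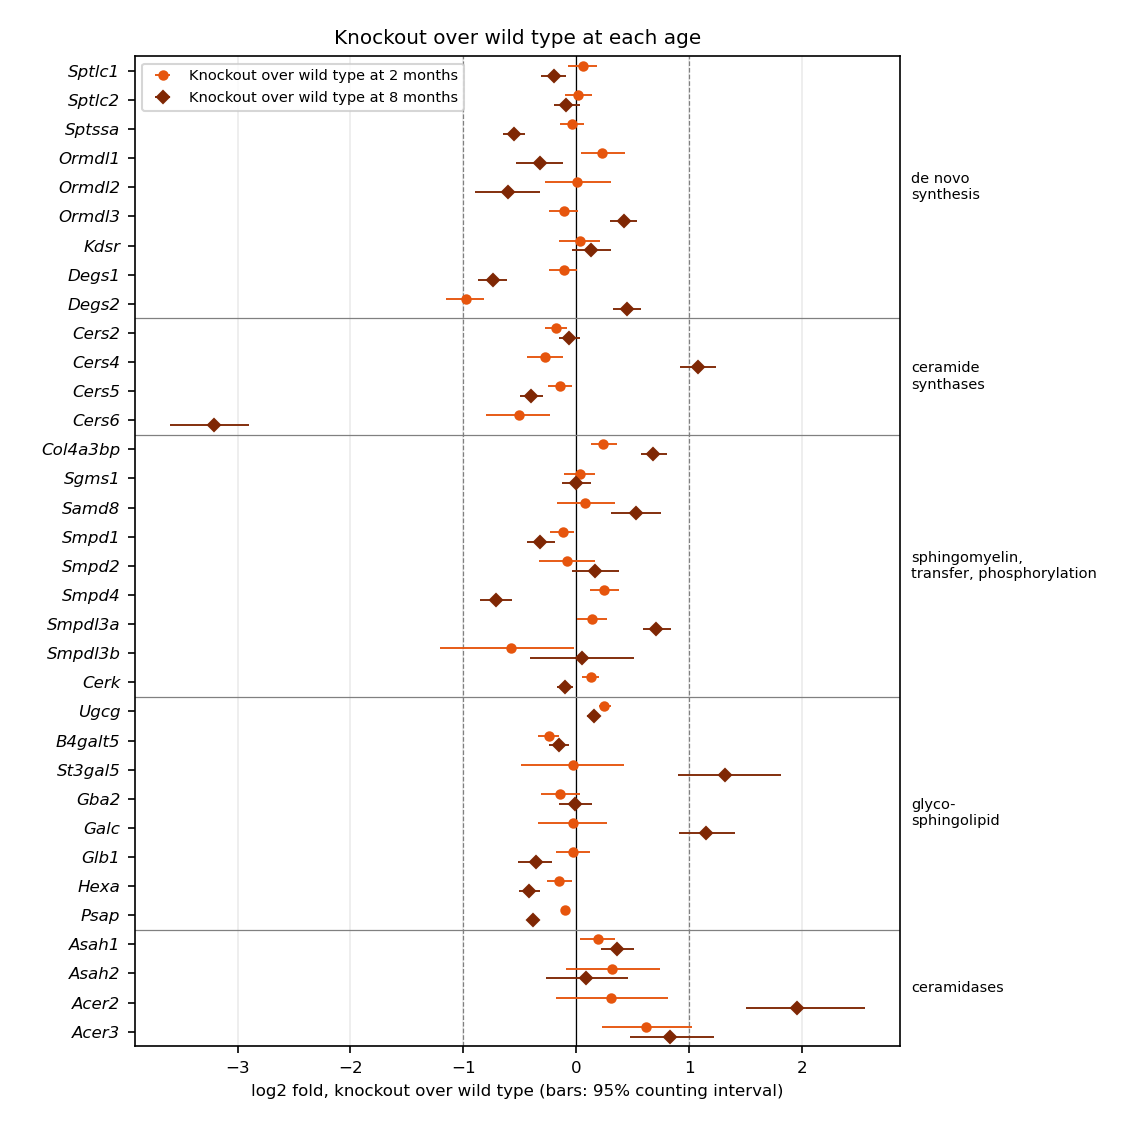
Knockout over wild type log2 fold of the 34 enzymes at 2 months (circles) and 8 months (diamonds), with 95% counting intervals and dashed lines at 2-fold. The 2-month points lie between the dashed lines, while at 8 months Cers6 lies at -3.21 and Cers4, Galc, St3gal5 and Acer2 lie between 1.08 and 1.96.

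Set beside all genes, the enzymes were not unusual in how many differed. At 2 months 0 of 34 were at 2-fold between knockout and wild type, where 3.0% of 12133 genes were, 0.923% higher and 2.08% lower. At 8 months 5 of 34 (14.7%) were, 4 higher and 1 lower, where 16.9% of all genes were, 10.4% higher and 6.47% lower. With age, 1 of 34 was at 2-fold in wild type (2.94%, against 6.06% of all genes, 3.29% higher and 2.77% lower), which was Cers6, higher at 8 months by 1.28 (1.09 to 1.49) on the log2 scale. In knockout 3 of 34 were (8.82%, against 15.0% of all genes, 10.3% higher and 4.71% lower), Degs2 and Galc higher and Cers6 lower by -1.41 (-1.85 to -1.04). The knockout over wild type fold differed between the ages by 2-fold or more for 6 of 34 (17.6%, against 17.2% of all genes, 11.4% up and 5.75% down), Cers6, Cers4, Degs2, Galc, St3gal5 and Acer2. The median log2 fold of the 34 was -0.03 at 2 months and 0.00 at 8 months for genotype, against -0.01 and 0.00 over all genes. The contrasts share libraries with each other, so their counts are not independent.

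**Figure D4:**
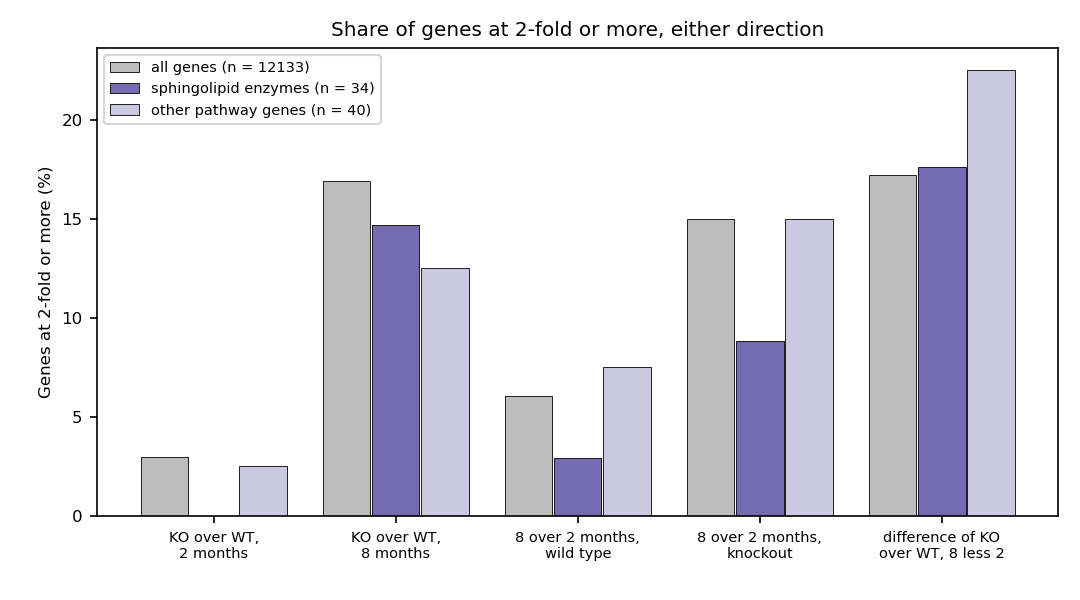
Share of genes at 2-fold or more in either direction in each contrast of single libraries and in the difference of the genotype fold between ages, for all genes, the 34 sphingolipid enzymes and 40 other genes of the pathway. The enzymes lie at or below all genes in the 4 contrasts and level with them in the difference (17.6% against 17.2%).

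In the additive model of genotype and age, 36 of the 42 enzymes could be tested. For genotype 0 of 36 passed the edgeR quasi-likelihood test at a Benjamini-Hochberg adjusted p of 0.05, where 0.0288% of 13906 genes passed. By the same test 1 of 36, Cers6, had an unadjusted p under 0.05, as had 1162 of the 13906 genes. For age 0 of 36 passed, where 0.230% of all genes did. Here 1 of 36, Smpd1, had an unadjusted p under 0.05, as had 1143 of the 13906 genes. DESeq2 called 0 and 0 of the 36 and limma-voom 0 and 0. The model takes the 2 ages as replicates of a genotype, leaves 1 residual degree of freedom, and counts a genotype effect that differs between the ages as spread. A value that missed the threshold is thus no sign of equal levels. In the authors' deposited table, Cers6 and Acer2 passed the marks set there (adjusted p under 0.005 and more than 2-fold), both between knockout and wild type at 8 months. That is 2 of 42 enzymes, where 1.69% of the 35275 genes listed, undetected ones included, were marked. The authors' deposited table gives log2 folds of -3.24 (adjusted p = 4.73e-09) and 2.01 (adjusted p = 0.00309). With 1 labelled library on each side, these p-values cannot measure the spread between animals or cultures. Cers6, 1 of the 2 marked enzymes, is the deleted gene.

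**Figure D5:**
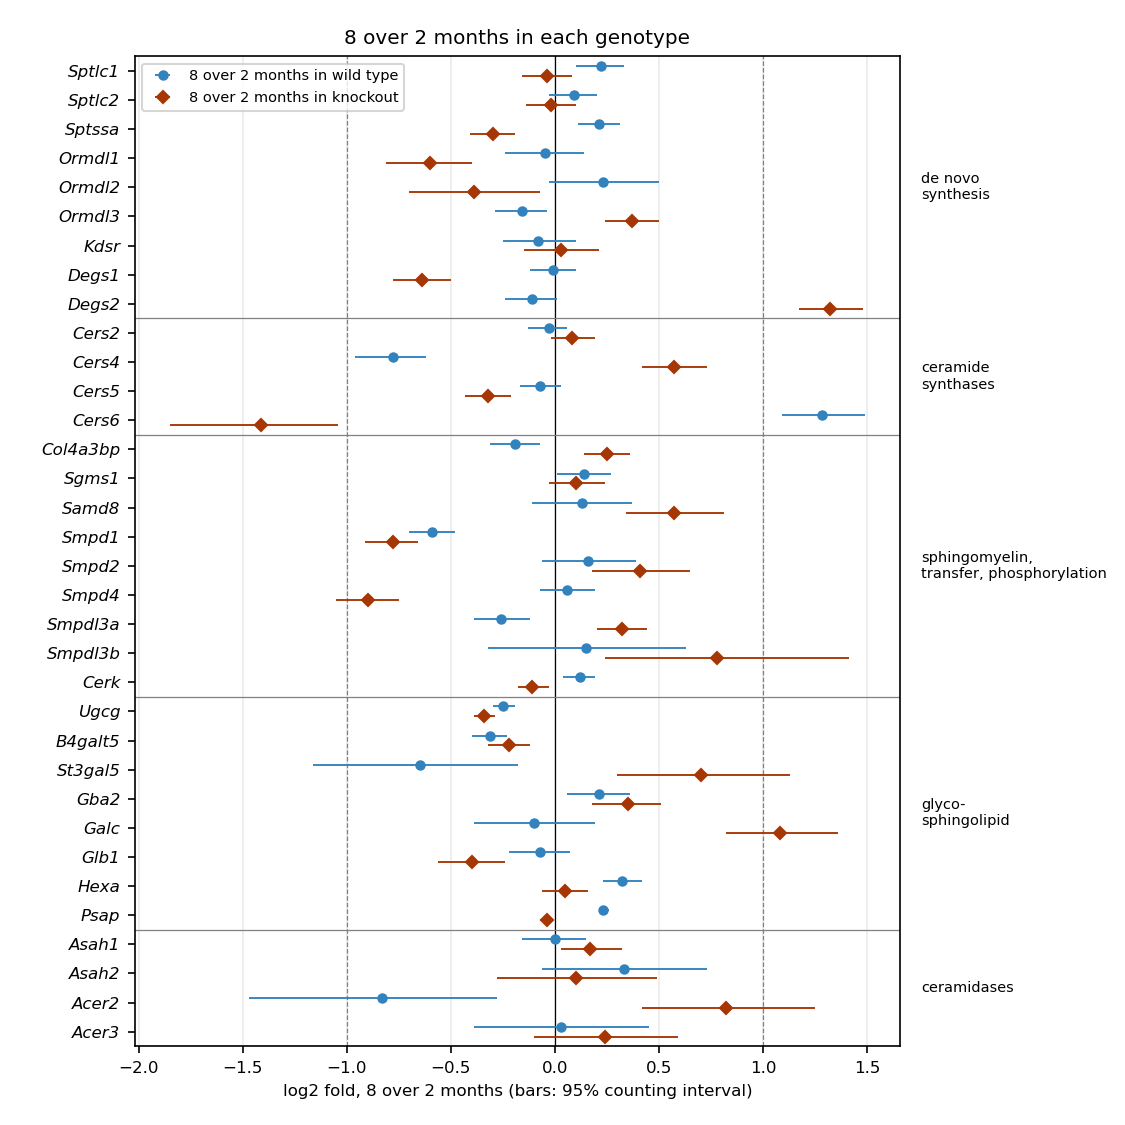
Log2 fold of 8 over 2 months in wild type (circles) and in knockout (diamonds) for the 34 enzymes, with 95% counting intervals and dashed lines at 2-fold. Cers6 lies at 1.28 in wild type and at -1.41 in knockout, and Smpd1 lies below 0 in both (-0.59 and -0.78).

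The 250 bases before the transcription start in RefSeq are shown for the 6 enzymes whose genotype fold differed 2-fold or more between ages, the enzymes on which the comparison of the ages turns. RefSeq and deposited starts differ for some of them. The Cers4 window lies inside the gene as deposited (start 4493026). The Acer2 and St3gal5 windows end past the deposited starts (86874396 and 72097592). The sequences are from RefSeq on GRCm38.p6, written 5′ to 3′ on the gene's strand, at chr2:68861191-68861440 (Cers6, plus), chr8:4493155-4493404 (Cers4, plus), chr12:108702307-108702556 (Degs2, minus), chr12:98259460-98259709 (Galc, minus), chr6:72097358-72097607 (St3gal5, plus) and chr4:86874164-86874413 (Acer2, plus). Capitals mark matches on either strand to the GC box GGGCGG bound by Sp1-type factors, the E-box CACGTG, the AP-1 site TGANTCA, the cyclic AMP response element TGACGTCA, the palindromic NRF1 site and the NFAT core GGAAAA.
Cers6: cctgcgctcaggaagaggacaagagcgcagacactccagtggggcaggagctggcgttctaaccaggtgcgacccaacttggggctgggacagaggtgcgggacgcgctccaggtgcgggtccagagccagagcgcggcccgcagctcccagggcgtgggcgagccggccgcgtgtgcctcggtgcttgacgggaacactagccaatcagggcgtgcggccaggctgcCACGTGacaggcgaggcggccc
Cers4: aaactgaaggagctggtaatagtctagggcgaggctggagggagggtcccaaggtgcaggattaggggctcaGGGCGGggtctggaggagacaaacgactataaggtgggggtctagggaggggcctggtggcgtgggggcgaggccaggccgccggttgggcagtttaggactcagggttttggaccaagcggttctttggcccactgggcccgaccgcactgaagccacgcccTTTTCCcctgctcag
Degs2: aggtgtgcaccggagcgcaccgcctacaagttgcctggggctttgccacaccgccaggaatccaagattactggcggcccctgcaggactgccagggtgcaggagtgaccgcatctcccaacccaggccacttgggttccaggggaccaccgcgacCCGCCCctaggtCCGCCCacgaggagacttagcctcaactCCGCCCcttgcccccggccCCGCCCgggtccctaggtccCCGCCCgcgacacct
Galc: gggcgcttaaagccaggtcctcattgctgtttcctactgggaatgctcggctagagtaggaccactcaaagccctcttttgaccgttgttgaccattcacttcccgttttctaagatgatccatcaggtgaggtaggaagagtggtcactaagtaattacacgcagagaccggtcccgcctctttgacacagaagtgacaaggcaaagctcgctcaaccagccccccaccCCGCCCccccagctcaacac
St3gal5: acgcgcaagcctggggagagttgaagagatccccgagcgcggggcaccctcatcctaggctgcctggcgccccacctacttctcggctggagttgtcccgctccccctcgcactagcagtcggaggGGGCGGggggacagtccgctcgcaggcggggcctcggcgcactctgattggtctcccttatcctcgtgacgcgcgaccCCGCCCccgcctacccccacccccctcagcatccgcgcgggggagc
Acer2: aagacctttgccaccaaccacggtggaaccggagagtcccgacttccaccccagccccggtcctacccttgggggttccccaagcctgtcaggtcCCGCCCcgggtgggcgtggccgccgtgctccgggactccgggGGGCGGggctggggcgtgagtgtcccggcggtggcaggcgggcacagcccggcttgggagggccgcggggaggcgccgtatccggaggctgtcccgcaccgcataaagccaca
The Cers6 window held 1 E-box and no GC box. The other 5 each held at least 1 GC box, 5 of them in Degs2, 2 each in St3gal5 and Acer2 and 1 each in Cers4 and Galc. Cers4 also held 1 NFAT core. Of 32851 mouse promoters cut to the same length, 32.7% held the GC box, 6.02% the E-box and 20.4% the NFAT core. Of the 37 enzymes with a promoter in the table, 70.3%, 16.2% and 27% held them in at least 1 window, a description with no test. These enzymes had 49 windows together, some more than 1 each, whereas the share of all promoters is per window. The shares are thus unlike measures, and more windows give an enzyme more room for a match. The AP-1, cyclic AMP and NRF1 letters were in none of the 6 windows and in 6.75%, 1.55% and 0.782% of all promoters. The other 5 of the 42 enzymes had no promoter in the table used here. A match is a description of letters and says nothing of binding.

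Other genes of the pathway were followed as 56 genes for acyl chain supply, further glycolipid steps and sphingoid base phosphates, of which 40 reached 2 CPM. Between knockout and wild type at 2 months 1 of 40 was at 2-fold (2.5%, against 3.0% of all genes). It was Mfsd2b, a sphingosine 1-phosphate transporter, with 4.27, 4.06, 1.63 and 5.09 CPM. At 8 months 2 were higher and 3 lower (12.5% in either direction, against 16.9% of all genes). Elovl7, an elongase of long fatty acyl chains, measured 3.22, 0.991, 3.31 and 5.74 CPM, and St6galnac6, a sialyltransferase of gangliosides, 14, 15.5, 13.2 and 40.1 CPM. Lower were B4galnt1, which extends GM3 and other precursors (467, 592, 425 and 259 CPM), Dbi, the acyl-CoA binding protein (96.7, 88.2, 80.3 and 41.3 CPM), and Plpp3, a lipid phosphate phosphatase (1.57, 3.68, 1.68 and 1.24 CPM). The older wild type held the lowest level of Elovl7 and the highest of Plpp3, as it held the lowest of Acer2 and St3gal5. For St6galnac6, B4galnt1 and Dbi, as for Galc and Degs1, the older knockout lay farthest from the other libraries. With age, 3 of 40 were at 2-fold in wild type (7.5%, against 6.06% of all genes), Elovl7 lower and Plpp3 and Sphk2 higher. In knockout 6 of 40 were (15%, against 15.0% of all genes), Hacd1 and Acsl5 lower and Neu1, St6galnac6, Plekha8 and Mfsd2b higher. The genotype fold differed 2-fold or more between the ages for 9 of 40 (22.5%, against 17.2% of all genes), namely Elovl7, Hacd1, B4galnt1, St8sia1, St6galnac6, Plekha8, Sphk2, Plpp3 and Mfsd2b. Sphk2, a kinase that makes sphingosine 1-phosphate, measured 23.2, 52.5, 37.7 and 31.2 CPM. It was higher in knockout by 0.70 (0.53 to 0.87) at 2 months and lower by -0.75 (-0.89 to -0.62) on the log2 scale at 8 months. In the additive model 0 of 43 tested genes of this list passed for genotype and 0 for age (edgeR quasi-likelihood, and 0 by DESeq2 and limma-voom). By edgeR quasi-likelihood 2 and 4 had an unadjusted p under 0.05, where 1162 and 1143 of the 13906 genes tested had.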

How the data were processed

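RNA-seq of 4 libraries was used, with groups taken from the sample labels. CASAVA, STAR, GRCm38 and mm10 are listed, per the submitters' processing notes. Not given in the sources used here are the counting tool, the annotation and the strand setting. Per the file headers, the deposited table holds raw read counts per gene, the authors' FPKM and group FPKM (equal to count over length and library total within a relative error of 5.0e-12, and not used further), and the authors' log2 fold changes, p-values and adjusted p-values for 4 contrasts, quoted as theirs. The authors' normalized signal per contrast, deposited beside them, was not used. There were 27 symbols turned into dates, restored by gene identifier, and 7 of the 56 other pathway genes carry older symbols and were matched by identifier.

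CPM used TMM factors over genes with a count (0.947, 0.968, 0.949 and 1.15, edgeR 4.0.16, R 4.3.3). Log2 folds of single libraries include a prior count of 2, and 2-fold was counted among 12133 genes at 2 CPM or more in at least 1 library, with no test. Intervals are exact at 95% (scipy 1.17.1), cover counting error only and exclude the prior count. Tests used edgeR quasi-likelihood with genotype and age on 13906 genes past filterByExpr, Benjamini-Hochberg adjusted over all of them at 0.05 (1 residual and 15.4 prior degrees of freedom). DESeq2 1.42.0 and limma 3.58.1 were alternatives. The additive test and the intervals of folds between 2 libraries were tested on simulated data. Those data held no genotype effect that differed between the ages.

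Named genes are the ceramide synthases, enzymes at 2-fold in any contrast or in the difference between ages, and the top enzyme per length of each step, 14 in all, with others given by their levels. Members, lists and motifs were chosen with earlier results of these data known. Exon overlaps use GENCODE M21 protein-coding genes.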

Additional observations from a re-analysis of the deposited data

Results flagged for a closer look

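Of the 42 enzymes, 5 lay on opposite sides of no change in knockout over wild type at the 2 ages, with both 95% counting intervals clear of it. They are 14.7% of the 34 past 2 CPM, where 14.2% of 12133 genes did the same. The difference between the ages has no replicate and was not tested. Degs2 differed by 1.43 on the log2 scale (-0.98 at 2 months and 0.45 at 8 months) and Cers4 by 1.35 (-0.28 and 1.08). Smpd4 differed by -0.96 (0.25 and -0.71), Ormdl1 by -0.55 (0.23 and -0.32) and Cerk by -0.22 (0.13 and -0.10). For Cerk the sign at 8 months depends on the scaling, since library size alone gave 0.15 there and a difference of 0.02. Beside the Cers4 value, the 8-month wild-type library, which is its lowest, was the one in which Trbv14 took 98.6% of the Trbv counts. Degs2 was lowest in the 2-month knockout library.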

How the results depend on the processing

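Among single-library contrasts, median-of-ratios factors, prior counts of 0.5 and 10 and a filter at 5 CPM left the members at 2-fold the same in number. Library size alone shifted the median of all genes by 0.25 at 8 months for genotype and gave 6 enzymes at 2-fold there (19.8% of all genes) and 5 with age in knockout (18.3%). With the length trend removed 4 were at 2-fold for genotype at 8 months (15.2%). Without a filter 2 and 7 enzymes were at 2-fold for genotype at 2 and 8 months (11.7% and 26.2% of all genes), 4 and 5 with age in wild type and knockout (18% and 22.8%), and 10 in the difference between ages (30.9%), the additions being genes under 2 CPM. With wild type at 2 months as the denominator, 3 enzymes were at 2-fold in the older knockout, Cers6, Galc and Acer2, against 5. That denominator was chosen after seeing the data and mixes age with genotype. Genes of the whole table called for genotype in the additive model, 4 as reported, were 0 with library size alone (938 with an unadjusted p under 0.05), 135 with every gene with a count, 101 with a mean of 5 CPM or more, 18 with DESeq2, 12 with limma-voom, 0 without the age term (unadjusted, 804), and from 0 to 101 when a library was left out. These last fits have the tested factor alone and take the lone library of a group to vary like the others. For age, 32 as reported, they were 20 with median-of-ratios factors, 0 with library size alone (807), 199, 126, 60, 55, 0 without the genotype term (830) and from 0 to 3308 over the fits without a library. Enzymes called for genotype, 0 as reported, were 1 (Cers6) with every gene with a count and with a mean of 5 CPM or more, and from 0 to 1 over the fits without a library. For age they were 0 in each setting that kept all 4 libraries. In the fits without a library, enzymes called for age varied with the library left out. They are not named here, since a group of such a fit holds 1 library. Of 260 refits of single enzymes, 28 changed the sign of an estimate that did not pass as reported.

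Sign changes were Cers2 for genotype (0.01) and, for age, Sptssa (0.11) and Cers4 (0.05) with library size alone, Sptssa with a mean of 5 CPM or more (0.02), Cers4 without the genotype term (0.00), Cers6 (-0.02) and Cerk (0.00) with median-of-ratios factors, Cers6 with every gene with a count (-0.01), and Cers6 (-0.05), Cerk (0.00) and Acer2 (0.00) with DESeq2. With each library left out, the genotype effect ranged from -0.93 to 0.40 for Degs2 and from -0.05 to 0.09 for Cerk. The age effect ranged from -1.71 to 1.53 for Cers6, -1.01 to 1.0 for Acer2, -0.64 to 0.71 for St3gal5, -0.64 to 0.44 for Cers4, -0.08 to 1.09 for Galc, -0.30 to 0.24 for Sptssa, -0.38 to 0.01 for Cers5, -0.08 to 0.29 for Psap, -0.09 to 0.28 for Asah1, -0.05 to 0.12 for Cers2 and -0.05 to 0.08 for Cerk.

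The causes of these shifts were not tested. Depth limits the 8 enzymes of few counts. No paired analysis was possible because each group has 1 library and the labels give no replicate numbers.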
